A study of Mus musculus with 36 samples.

Results

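The genes described here are 10 imprinted genes with known roles in fetal growth, chosen by gene symbol from the 23847 gene entries measured in mouse embryonic gut. They are Igf2, H19, Dlk1, Meg3, Cdkn1c, Peg3, Mest, Plagl1, Grb10 and Igf2r, and each had 1 entry. The study profiled poly(A)-selected RNA of dissected guts from C57BL/6J embryos at E10.5, at E12.5 and at E14.5 (days of embryonic development). Embryos were labelled wild type or Ret Null, the second being animals without a working allele of Ret, the receptor tyrosine kinase that enteric neural crest cells need to colonize the gut. Each stage, labelled genotype and labelled sex has 3 libraries, which makes 36 libraries in 12 groups. The labels do not say whether a replicate is 1 embryo or a pool, so the p-values measure only how far these samples spread, and that spread may be technical. In 4 cases, 2 libraries of a group differed by more than 3 SD of sampling noise in at most 1% of genes and were counted as 1 sample, which left 32 samples. At E10.5 there were 4 wild-type and 5 null-labelled samples, at E12.5 5 and 6, and at E14.5 6 and 6.

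An imprinted gene is transcribed mainly from the copy inherited from 1 parent, a choice set by DNA methylation laid down in the germ line. Growth-promoting genes tend to be expressed from the paternal copy and growth-restraining genes from the maternal copy, and many sit in clusters in which a protein-coding gene and a noncoding RNA are expressed from opposite parental chromosomes. Many of them are abundant in fetal mesenchyme and are switched down as organs mature. FPKM values do not separate the parental copies, so the levels below are totals over both.

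The targeted gene did not follow the labels in every library. Ret stood at 2.11 to 13.3 FPKM in the 18 wild-type libraries and at 0.0111 to 0.0587 FPKM in 11 of the 18 null-labelled ones. The other 7 libraries labelled Ret Null held Ret at 4.74 to 6.49 FPKM. They are E10.5 female 1, 2 and 3, E12.5 male 2, and E14.5 female 1, female 3 and male 1. At E10.5 the presence of Ret RNA in the null-labelled libraries therefore coincides with the labelled sex. The RNA of sex-linked genes went against the labelled sex in 4 libraries, E10.5 null-labelled female 3 and male 1 and E12.5 wild-type female 1 and 2. By that RNA, Ret and sex do not coincide in the first 2 of these. Between the labelled genotypes Ret differed by -1.23 at E10.5 (adjusted p = 0.0153), -3.02 at E12.5 (adjusted p = 0.255) and -1.81 at E14.5 (adjusted p = 0.0537 in limma). Comparisons below follow the labels. Where leaving out the null-labelled libraries that hold Ret RNA ends a call, this is said, and some of the values it moves are given. At E10.5 this leaves no null-labelled library labelled female. Genotype differences at E10.5, and null-labelled changes and interactions from E10.5 to E12.5, then compare libraries labelled male only. Gut epithelium, mesenchyme and smooth muscle markers were above 0 in every library. The summed FPKM was 404022 to 497295 per library, of which the 10 genes made up 0.840 to 1.17%. The files give no read counts, so the depth behind each value is unknown, but the authors' confidence intervals reached 0.429 to 8.30% of the value on either side for these genes.

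Imprinted growth genes were among the most abundant RNAs of the embryonic gut. H19, a noncoding RNA expressed from the maternal chromosome, ranked 24th of all entries by mean level over the samples. Igf2, the paternally expressed fetal insulin-like growth factor, ranked 94th. Igf2r, the maternally expressed receptor that carries IGF2 to lysosomes, was the least abundant of the 10 by this measure and still ranked 1193rd. FPKM is scaled by transcript length, so levels may be set side by side between genes. In wild-type gut H19 stood above Igf2 with no overlap between samples at all 3 stages. Igf2 stood above Mest, a paternally expressed hydrolase-fold gene, with no overlap at E10.5 and E12.5. At E10.5 Mest also lay above Meg3, whereas Meg3, Grb10, Cdkn1c, Peg3 and Plagl1 each overlapped with the next gene in the order. Dlk1 came ninth and lay above Igf2r with no overlap. At E14.5 every gene after H19 overlapped with the next, and Peg3 had moved to the last place, below Igf2r, with overlapping ranges.

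Positions are given in mm10 as in the deposited files, counted from 1. H19 lies at chr7:142575532-142578146 and Igf2 at chr7:142650768-142661035, in the same cluster. Cdkn1c lies further along at chr7:143458339-143461050 and Peg3 at chr7:6705960-6730419. Dlk1 lies at chr12:109452823-109463336 and Meg3 at chr12:109540996-109571729. Mest lies at chr6:30733506-30748466, Plagl1 at chr10:13090788-13131695, Grb10 at chr11:11930499-12037420 and Igf2r at chr17:12682406-12769706.

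Meg3, Peg3 and Grb10 are the members whose values the results below turn on most, and the bases before their starts are shown because the starts of Meg3 and Peg3 lie in or beside regions known to be methylated on 1 parental copy, with Grb10 for comparison. Each runs up to the outermost RefSeq start of the gene (GRCm38.p6) and stops at any neighbouring gene, and capitals mark TGCCGC on either strand, the core motif bound by the imprint-keeping zinc finger protein ZFP57.
Meg3, chr12:109540796-109540995, plus strand: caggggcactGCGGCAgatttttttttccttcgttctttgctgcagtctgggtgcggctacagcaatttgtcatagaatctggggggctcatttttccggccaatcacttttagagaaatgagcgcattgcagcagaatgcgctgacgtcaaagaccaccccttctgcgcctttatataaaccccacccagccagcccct
Peg3, chr7:6730463-6730558, minus strand: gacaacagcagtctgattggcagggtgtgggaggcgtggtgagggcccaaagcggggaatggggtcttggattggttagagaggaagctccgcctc
Grb10, chr11:12037429-12037628, minus strand: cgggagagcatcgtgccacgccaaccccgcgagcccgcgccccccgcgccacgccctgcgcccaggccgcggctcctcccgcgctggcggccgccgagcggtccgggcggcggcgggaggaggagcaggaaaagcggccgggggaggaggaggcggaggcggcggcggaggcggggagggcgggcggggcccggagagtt
The Meg3 stretch of 200 bases held the motif 1 time, as GCGGCA. The motif was present in 2422 of 32851 RefSeq promoter windows of 200 bases (7.37%). The Peg3 stretch is the 96 bases between Peg3 and the neighbouring RefSeq gene. It held no match, and 4.03% of windows of that length held one. The Grb10 stretch held no match either. The 3 stretches differ in their CpG content. Grb10 had 33 CpG in 200 bases, more than 98.6% of windows, Meg3 had 8 against a median of 5, and Peg3 had 3 in its shorter stretch, which is also the median for that length. These counts describe the letters of the reference sequence and say nothing of methylation in these guts.

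The largest difference among the 10 genes between the labelled genotypes was that of Peg3 at E10.5. Peg3, a paternally expressed zinc finger gene, stood at 109.9, 155 and 212 FPKM (lowest, median and highest) in the 6 wild-type libraries of E10.5. The 6 null-labelled libraries stood at 42.7, 64.3 and 82.7 FPKM. The ranges did not overlap, and all null-labelled libraries were low whether or not they held Ret RNA. With Ret RNA they stood at 64.3 to 82.7 FPKM and without it at 42.7 to 65.2 FPKM. Within wild type, the 3 libraries labelled female (183 to 212 FPKM) lay above the 3 labelled male (109.9 to 126 FPKM). Female 1 and 2 count as 1 sample, as do male 3 and 4. The same libraries differed in their summed liver markers, at 708 to 940 FPKM in the female and 18.8 to 21.7 FPKM in the male ones. Labelled sex and liver RNA thus coincide here, and the part of either in the Peg3 levels was not tested. Between the labelled genotypes the fitted difference was -1.24 on the log2(FPKM + 1) scale (SE 0.13, 0.423-fold). Its adjusted p was 0.00382 (limma with Benjamini-Hochberg adjustment over all genes). Among the 19 alternative settings the call ended in 1. Without the null-labelled libraries that hold Ret RNA the difference was -1.06 with an adjusted p of 0.0578 in limma. That value compares libraries labelled male only.

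Peg3 heads an imprinted domain on chromosome 7, and its 2 expressed neighbours had lower means in the null-labelled group at E10.5. Zim1, a maternally expressed zinc finger gene next to Peg3, was at 24.3 ± 5.07 FPKM in wild type (SD, n = 4) and 8.80 ± 2.52 FPKM in null-labelled gut (SD, n = 5). Its difference of -1.34 passed the test (adjusted p = 0.00422 in limma). The antisense entry Peg3as, which overlaps Peg3, was at 236 ± 84.5 against 118 ± 10.6 FPKM. No source used here states whether the counting used strand, so reads of Peg3as and Peg3 cannot be told apart. Usp29 had means under 1 FPKM in both groups.

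Plagl1, Mest, H19 and Igf2r also passed the test at E10.5, with smaller differences. In all, 2 of the 10 genes were higher and 3 lower in the null-labelled samples. For comparison, 8.29% of the 13165 genes tested passed in either direction, 5.61% higher and 2.67% lower. The median difference of the 10 genes was 0.09 and that of all genes 0.01, on the log2 scale.

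Plagl1, a paternally expressed zinc finger transcription factor that acts on other imprinted genes, stood at 115, 141 and 149.9 FPKM in the wild-type libraries of E10.5. The null-labelled libraries stood at 176, 196 and 233 FPKM, all above the wild-type ones. The difference was 0.58 (SE 0.10, 1.498-fold, adjusted p = 0.0186 in limma). The call ended in 5 of 19 alternatives. Leaving out wild-type male 3 and 4 gave an adjusted p of 0.0670 and leaving out wild-type male 5 gave 0.0647 in limma for Plagl1. Without the null-labelled libraries that hold Ret RNA, Plagl1 differed by 0.50 with an adjusted p of 0.0952 in limma, between libraries labelled male only.

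H19 stood at 1389.6, 1546 and 1805 FPKM in wild-type libraries of E10.5 and at 1835, 1888 and 2105 FPKM in null-labelled ones. The ranges did not overlap, although the highest wild-type and the lowest null-labelled library were close. The difference was 0.29 (SE 0.06, 1.22-fold, adjusted p = 0.0307 in limma), and the call ended in 10 of 19 alternatives, among them each omission of a null-labelled male library. Igf2, which shares enhancers with H19, stood at 692, 826 and 988 FPKM against 719, 946 and 1012 FPKM. These Igf2 ranges overlapped widely, and the difference did not pass the test.

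Mest stood at 427, 475 and 595 FPKM in wild-type libraries of E10.5 and at 260.4, 363 and 403 FPKM in null-labelled ones. All null-labelled libraries were low, with no overlap. The difference was -0.49 (SE 0.12, 0.712-fold, adjusted p = 0.0493 in limma), close to the threshold, and the call ended in 16 of 19 alternatives. Igf2r stood at 48.9, 56.8 and 58.4 FPKM in wild type and at 41.2, 46.4 and 50.3 FPKM in null-labelled libraries, which overlapped. Its difference was -0.27 (SE 0.07, 0.827-fold, adjusted p = 0.0447 in limma), and the call ended in 15 of 19 alternatives. Without wild-type male 5, Peg3 was the only one of the 10 genes that still passed. Without the null-labelled libraries that hold Ret RNA none of the 10 passed in limma, with 0.522% of all genes called. That setting compares libraries labelled male only, so it differs from the main comparison in labelled sex and sample number as well. The same 5 genes (H19, Igf2r, Mest, Peg3 and Plagl1) then had an unadjusted p under 0.05.

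The remaining members did not pass at E10.5. Meg3, a maternally expressed noncoding RNA, was lower in the wild-type libraries labelled female than in those labelled male. Female 1 and 2, at 159 and 163 FPKM, count as 1 sample, and female 3 stood at 331 FPKM. Male 3 and 4, at 419 and 422 FPKM, count as 1 sample, and male 5 stood at 415 FPKM. The liver marker sums divide these libraries in the same way, and this order was not tested. Null-labelled libraries ranged from 352 to 480.4 FPKM, within and above the wild-type range. The difference of Meg3 was 0.35 with an adjusted p of 0.286 in limma. Without wild-type female 3, Meg3 differed by 0.61. Without the null-labelled libraries that hold Ret RNA the Meg3 difference was -0.13. That value compares libraries labelled male only, so the lower wild-type libraries labelled female are not in it. Dlk1, the paternally expressed membrane ligand of the same cluster, had means of 121 ± 35.6 (SD, n = 4) and 128 ± 30.0 FPKM (SD, n = 5). Cdkn1c, which encodes the maternally expressed cyclin-dependent kinase inhibitor p57, had means of 266 ± 76.9 and 314 ± 42.6 FPKM. Grb10, an adaptor that restrains insulin and IGF receptor signalling, had 305 ± 28.0 and 308 ± 21.0 FPKM.

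**Figure D1:**
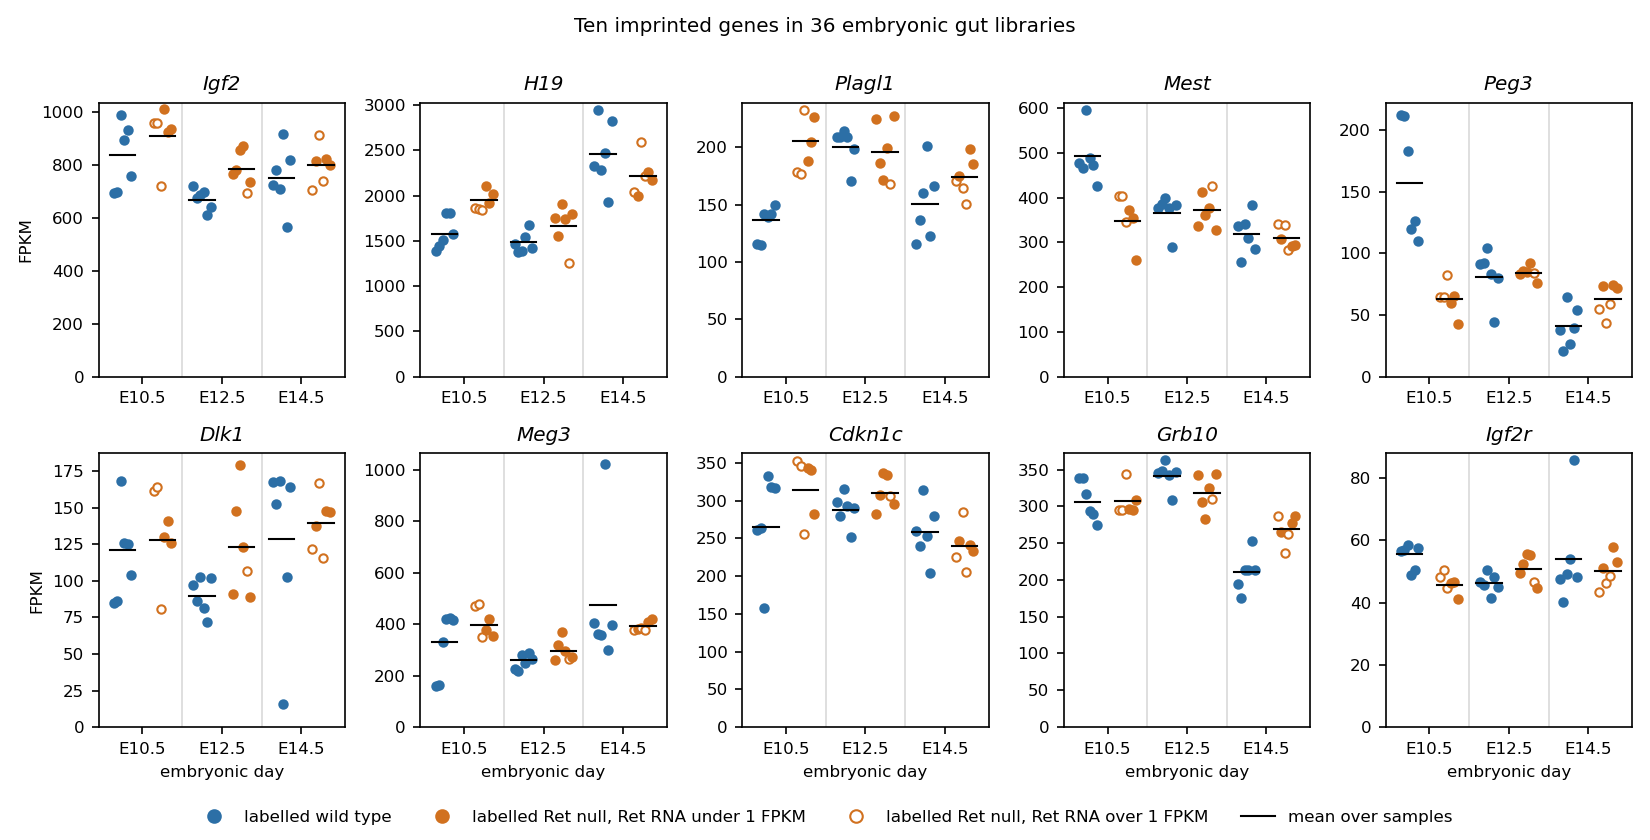
FPKM of the 10 genes in each library (vertical axes, 1 panel a gene) by stage and labelled genotype, with open symbols for null-labelled libraries that hold Ret RNA and bars for the mean over samples. Peg3 at E10.5 runs from 109.9 to 212 FPKM in wild type and from 42.7 to 82.7 FPKM in null-labelled libraries, and 1 wild-type library of E14.5 lies at 16.1 FPKM for Dlk1 and at 1022 FPKM for Meg3.

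Cell type markers differed between the labelled genotypes at E10.5 too. The summed level of 6 smooth muscle markers was 102 to 229 FPKM in wild-type libraries and 334 to 467 FPKM in null-labelled ones, and 4 of the 6 were higher in limma. The summed mesonephros and gonad markers were at 46.8 to 80.2 FPKM in wild type and 25.3 to 49.9 FPKM in null-labelled libraries, with none of 5 called in limma and 2 at an unadjusted p under 0.05. Of the gut epithelium markers 4 of 6 were higher, of the gut mesenchyme markers 2 of 6 were higher, and of the red cell markers 2 of 6 were lower. No smooth muscle, mesonephros, epithelium, mesenchyme or red cell marker was at 0 in any library of this stage. In bulk tissue, fewer cells of a type and less RNA per cell cannot be told apart, and the part of these markers in the differences of the imprinted genes was not tested.

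At E12.5 none of the 10 genes passed the test in limma, in a comparison in which 0.00759% of 13182 genes did. Ret itself did not pass at this stage (-3.02, adjusted p = 0.255 in limma), so a gene without a call may still differ. At an unadjusted p under 0.05 in limma there were 2 of the 10 genes, Igf2 and Dlk1. Without the null-labelled library that holds Ret RNA they were Igf2 and H19. Igf2 stood at 609, 680.3 and 719.5 FPKM in wild-type libraries and at 695, 771 and 872 FPKM in null-labelled ones. Only 2 wild-type libraries lay above the lowest null-labelled one, E12.5 male 2, which is the one that holds Ret RNA at this stage. The Igf2 difference was 0.22 with an adjusted p of 0.525. Dlk1 stood at 71.6, 91.5 and 103 FPKM against 89.1, 115 and 179 FPKM, with a difference of 0.39 and an adjusted p of 0.585 in limma. Peg3, which passed at E10.5, had means of 80.6 ± 22.4 (SD, n = 5) and 84.0 ± 5.11 FPKM (SD, n = 6) at E12.5.

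At E14.5 Grb10 passed and was higher in the null-labelled libraries. Grb10 stood at 176, 213 and 253 FPKM in wild-type libraries and at 237, 271 and 287 FPKM in null-labelled ones. A single wild-type library, male 2, lay inside the null-labelled range. The difference was 0.36 (SE 0.07, 1.28-fold, adjusted p = 0.0154 in limma), and none of 22 alternatives ended the call. Null-labelled libraries with Ret RNA stood at 237, 262 and 287 FPKM and those without at 266, 277 and 287 FPKM, so the 2 kinds overlapped. Without the libraries that hold Ret RNA the difference was 0.38 (adjusted p = 0.0406 in limma, with 8.61% of all genes called). At this stage 15.7% of 13861 genes passed (10.9% higher and 4.84% lower), so 1 of 10 is not above the background share. The median difference of the 10 genes was 0.03 and that of all genes 0.04.

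Peg3 at E14.5 had the opposite order from E10.5. It stood at 21.2, 38.5 and 64.9 FPKM in wild-type libraries and at 43.4, 65.3 and 74.0 FPKM in null-labelled ones. The 3 null-labelled libraries without Ret RNA were the highest of the stage, at 72.0 to 74.0 FPKM, and the 3 with Ret RNA, at 43.4 to 58.6 FPKM, lay inside the wild-type range. The Peg3 difference of 0.69 did not pass (adjusted p = 0.0814 in limma), but did without wild-type female 3, with 0.88 and an adjusted p of 0.0209. Without the null-labelled libraries that hold Ret RNA the Peg3 difference was 0.93 (adjusted p = 0.116). Summed markers of other tissues varied more between the wild-type than the null-labelled libraries at this stage. The red cell sum was 3696 to 25735 FPKM in wild type and 1863 to 4568 FPKM in null-labelled libraries, and the heart and skeletal muscle sum 14.7 to 888 and 7.22 to 23.7 FPKM. Their part in these values was not tested.

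**Figure D2:**
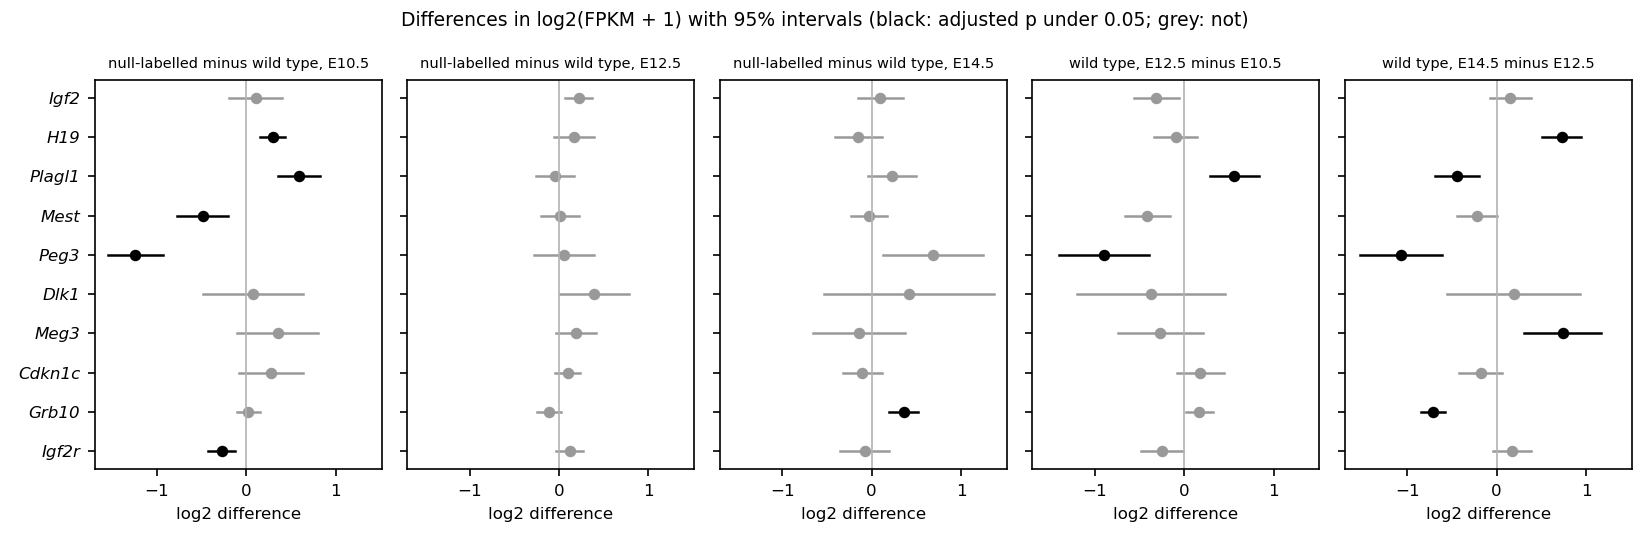
Fitted log2 differences with their 95% intervals for each gene in 5 comparisons (horizontal axis, difference in log2(FPKM + 1)), black where the adjusted p was under 0.05 and grey otherwise. At E10.5 the value of Peg3, -1.24, is the farthest from 0 of the genotype differences, and at E14.5 the interval of Grb10 lies above 0.

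Over time in wild-type gut, Peg3 fell at both steps and Grb10, H19 and Meg3 changed at the second. The 2 steps share the E12.5 samples, and all stage differences come from 1 model of 12 group means. From E10.5 to E12.5, Peg3 fell by 0.90 on the log2 scale (SE 0.24, adjusted p = 0.0332 in limma) and Plagl1 rose by 0.56 (SE 0.13, adjusted p = 0.0137). That is 2 of 10 genes, with 4.57% of 14321 genes called. The Peg3 call ended in 9 and the Plagl1 call in 5 of 41 alternatives, mostly with 1 wild-type sample left out. Plagl1 stood at 115 to 149.9 FPKM in wild-type libraries of E10.5 and at 170.5 to 214 FPKM at E12.5, without overlap. Mest had a difference of -0.41 with an adjusted p of 0.0504.

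From E12.5 to E14.5 the wild-type gut changed widely, with 58.9% of all genes called (31% rose and 27.9% fell), so 5 of 10 is below the background share. H19 rose from 1376, 1444 and 1669.8 FPKM to 1927, 2400.1 and 2939.7 FPKM, with every E14.5 library above every E12.5 library. Its difference was 0.73 (SE 0.10, 1.66-fold, adjusted p = 3.27e-06 in limma). Grb10 fell from 308, 346 and 363 FPKM to 176, 213 and 253 FPKM, again without overlap. The Grb10 difference was -0.71 (SE 0.07, 0.611-fold, adjusted p = 8.88e-09 in limma).
Peg3 went from 44.2, 87.5 and 104 FPKM to 21.2, 38.5 and 64.9 FPKM, with 1 low E12.5 library (male 2) inside the E14.5 range. Its difference was -1.07 (SE 0.22, 0.477-fold, adjusted p = 0.000241 in limma). Plagl1 fell by 0.45 (SE 0.12, adjusted p = 0.00264). Meg3 rose by 0.74 (SE 0.21, adjusted p = 0.00403 in limma), of which 0.48 remained without wild-type male 1 (adjusted p = 0.00586). Dlk1 had a difference of 0.19 (adjusted p = 0.669 in limma), and without the same library 0.68 (adjusted p = 0.00729). Mest had -0.22 and did not pass, and Igf2, Cdkn1c and Igf2r did not pass either. None of 41 alternatives ended the calls of H19, Grb10, Peg3, Plagl1 or Meg3 at this step.

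The null-labelled libraries showed no call among the 10 genes from E10.5 to E12.5 in limma, with 3.36% of all genes called. At an unadjusted p under 0.05 there was 1, H19. Peg3, at 63.0 ± 14.3 (SD, n = 5) and 84.0 ± 5.11 FPKM (SD, n = 6), had a difference of 0.40 with an adjusted p of 0.340. From E12.5 to E14.5, 4 of 10 passed with a background of 35% (23.2% rose and 11.8% fell). H19 rose by 0.41 (SE 0.10, adjusted p = 0.00204 in limma), from a range of 1256 to 1903 FPKM to one of 1992 to 2589 FPKM, without overlap. Cdkn1c fell by 0.38 (SE 0.11, adjusted p = 0.00908), from 283 to 337 FPKM down to 206 to 285 FPKM, and the ranges overlapped only at the edge. Grb10 fell by 0.24 (SE 0.06, adjusted p = 0.00415) and Mest by 0.27 (SE 0.10, adjusted p = 0.0468 in limma).
Without the libraries that hold Ret RNA only Grb10 passed, with 23.4% of all genes called, and H19 had 0.26 with an adjusted p of 0.0964. The Mest call ended in 21 of 41 alternatives. Meg3 had 0.41 with an adjusted p of 0.108 and Peg3 had -0.44 with an adjusted p of 0.105 in limma. Without the libraries that hold Ret RNA, Peg3 had -0.19 with an adjusted p of 0.668.

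The difference between the time courses of the labelled genotypes was tested as an interaction. For the step from E10.5 to E12.5, Peg3 passed with an interaction of 1.30 (SE 0.33, adjusted p = 0.0471 in limma), with 1.34% of all genes called. Wild-type Peg3 went from 157 ± 48.4 to 80.6 ± 22.4 FPKM and null-labelled Peg3 from 63.0 ± 14.3 to 84.0 ± 5.11 FPKM. The call ended in 26 of 41 alternatives while the value stayed between 1.15 and 1.39. Among these was the setting without the null-labelled libraries that hold Ret RNA, which for this step compares libraries labelled male only. Plagl1 had an interaction of -0.63 (adjusted p = 0.0779) and Mest one of 0.50 (adjusted p = 0.125). In the same setting the Plagl1 interaction was -0.35, again from libraries labelled male only.
For the step from E12.5 to E14.5, Grb10 passed with 0.47 (SE 0.09, adjusted p = 0.00334 in limma), with 17.4% of all genes called and no alternative ending the call. Grb10 went from 341 ± 20.04 to 211 ± 25.5 FPKM in wild type and from 318 ± 23.5 to 269 ± 18.99 FPKM in null-labelled gut. H19 had an interaction of -0.31 (adjusted p = 0.127) and Peg3 one of 0.63 (adjusted p = 0.145 in limma). Without the libraries that hold Ret RNA the H19 interaction was -0.46 and passed (adjusted p = 0.0334), with 18% of all genes called.

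Dlk1 and Meg3 are neighbours that are expressed from opposite parental chromosomes, and 1 library lay outside the range of the other 35 in both. The description of this library was chosen after its values were seen. E14.5 wild-type male 1 had Dlk1 at 16.1 FPKM, whereas the other 5 wild-type libraries of the stage had 102 to 168 FPKM and the other 35 libraries of the study 71.6 to 179 FPKM. Its Meg3 stood at 1022 FPKM, against 300.1 to 406 FPKM in the 5 and 159 to 480.4 FPKM in the 35. The ratio of Meg3 to Dlk1 in it was 63.4, and in the other 35 libraries it was 1.88 to 4.35 with a median of 2.78.
The noncoding RNAs that follow Meg3 on the chromosome were high in the same library. Rian, a host of small nucleolar RNAs, stood at 350 FPKM against 146 to 196 FPKM in the 5, and Mirg, a microRNA host, at 47.6 against 16.8 to 22.2 FPKM. Dio3, a paternally expressed deiodinase gene at the far end of the cluster, stood at 0.272 FPKM against 0.478 to 2.78 FPKM. Rtl1 was at 2.77 FPKM against 0.802 to 2.65 FPKM, and overlaps an antisense transcript that the counting may not separate.
Of 8986 genes with a median of at least 5 FPKM in those 5 libraries, 2 had a lower log2 ratio than Dlk1 in this library, and 10 (0.111%) had a higher one than Meg3. The 29 imprinted genes outside chromosome 12, of the 10 described here and the fixed lists, had ratios of 0.571 to 1.71 with a median of 0.984, and all genes had a median of 0.964. The same library had the highest red cell marker sum of the 6, 25735 against 3696 to 17552 FPKM, and the highest gut mesenchyme sum, 2491 against 990 to 1600 FPKM. Their part in the values of Dlk1 and Meg3 was not tested.

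**Figure D3:**
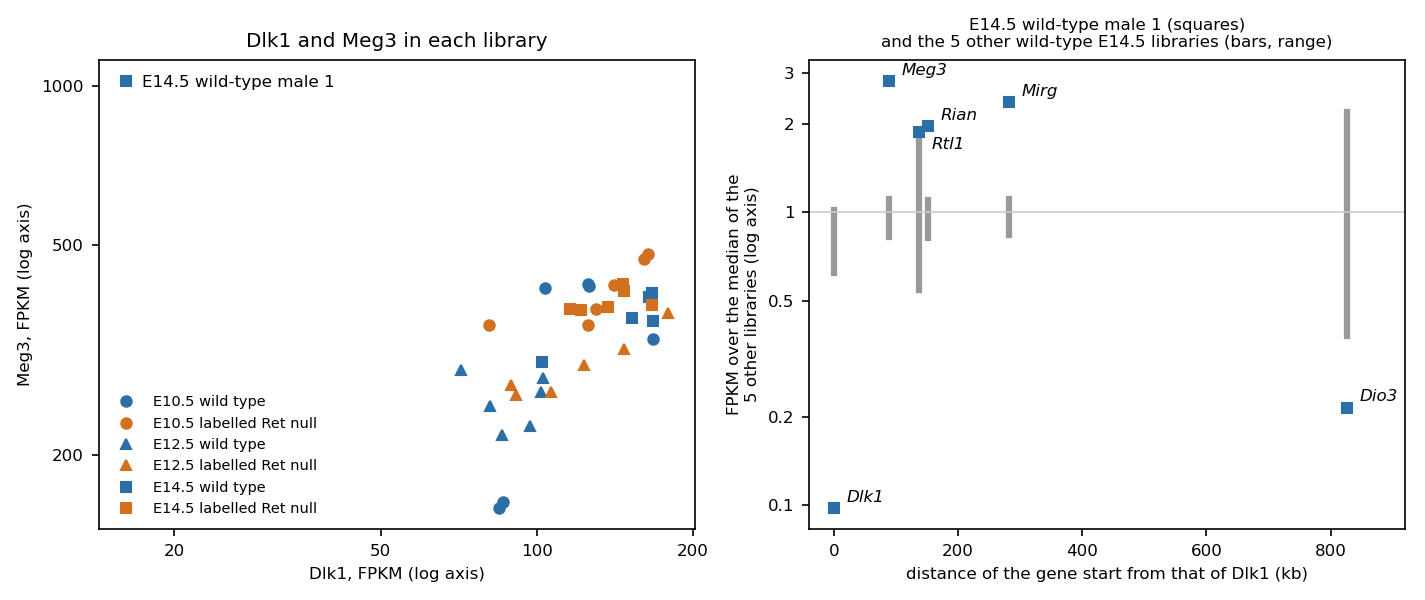
Left, Dlk1 (horizontal) against Meg3 (vertical) in FPKM on log axes, 1 point a library: E14.5 wild-type male 1 lies alone at 16.1 and 1022 FPKM. Right, the level of each cluster gene in that library over the median of the 5 other wild-type libraries of E14.5 (vertical, log axis) by distance from the start of Dlk1 (horizontal, kb), with Dlk1 and Dio3 below 1 and Meg3, Rian and Mirg above 1.

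This library moved the genotype values at E14.5. With it, Dlk1 differed by 0.42 between labelled genotypes (adjusted p = 0.504 in limma) and Meg3 by -0.14 (adjusted p = 0.691). Without it, Dlk1 differed by -0.070 and Meg3 by 0.12, and neither passed. In the null-labelled libraries of E14.5, Dlk1 stood at 116, 142 and 167 FPKM and Meg3 at 376, 384 and 422 FPKM, and the libraries with and without Ret RNA overlapped in both.

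Across samples within a stage, Dlk1 and Meg3 were compared as cluster neighbours, and so were Igf2 and H19, which makes 6 relations with p-values adjusted over the 6. Dlk1 and Meg3 had Pearson r of 0.55 at E10.5 (n = 9, exact permutation p = 0.128, adjusted p = 0.131) and Spearman rho of 0.38 (permutation p = 0.312). At E12.5 r was 0.75 (n = 11, permutation p = 0.00761, adjusted p = 0.0457) and rho 0.58 (permutation p = 0.0647). Without null-labelled female 2 and 3, the samples farthest from the median of Dlk1, r was 0.21, so the relation rests on those samples. At E14.5 r was -0.88 (n = 12, permutation p = 0.0795, adjusted p = 0.119) and rho -0.05 (permutation p = 0.886), and r was 0.12 without wild-type male 1 and 2.
Igf2 and H19 had r of 0.55 at E10.5 (n = 9, exact permutation p = 0.131), 0.56 at E12.5 (n = 11, permutation p = 0.0737) and 0.54 at E14.5 (n = 12, permutation p = 0.0653). Their rho was 0.55 (permutation p = 0.133), 0.65 (permutation p = 0.0365) and 0.50 (permutation p = 0.104), and no r passed after adjustment (adjusted p = 0.131, 0.119 and 0.119). Without the 2 samples farthest from the median of Igf2, r was 0.45, 0.27 and 0.35. Each relation pools the labelled genotypes and sexes of its stage.

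The ratio of H19 to Igf2 was higher at E14.5. In wild-type libraries its median was 2.01 at E10.5, 2.13 at E12.5 and 3.32 at E14.5, and in null-labelled libraries 2.08, 2.11 and 2.80. At E14.5 the wild-type libraries lay between 2.70 and 3.77 and the null-labelled ones between 2.44 and 2.99, so the ranges overlapped. The ratio of Igf2 to its clearance receptor Igf2r was 12.2 to 18.5 in wild-type and 16.1 to 22.7 in null-labelled libraries of E10.5, which overlapped as well. At E14.5 wild-type male 2 had the lowest ratio of Igf2 to Igf2r of the 36 libraries, 6.59. This library also had the highest heart and skeletal muscle marker sum of its stage, 888 FPKM against 14.7 to 63.3 FPKM in the other 5 wild-type libraries, and the highest endothelium sum, 161 against 77.8 to 104 FPKM. The part of these cells in its Igf2r level was not tested. These ratios are descriptions and carry no test.

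**Figure D4:**
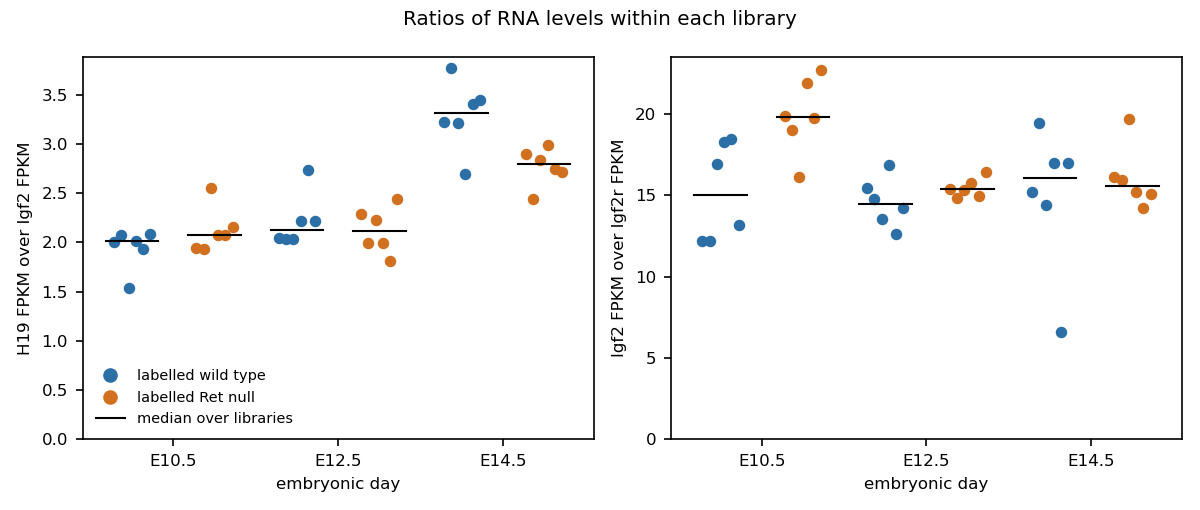
Ratios of FPKM per library, H19 over Igf2 and Igf2 over Igf2r (vertical axes), by stage and labelled genotype, with bars at the medians. H19 over Igf2 has a median of 3.32 in wild-type gut of E14.5 against 2.13 at E12.5, and 1 wild-type library of E14.5 lies at 6.59 for Igf2 over Igf2r.

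Genes that share a pathway with the 10 were read from fixed lists. Of 15 tested genes of the IGF axis (other ligand, receptors, binding proteins and proteases), at E10.5 Igfbp2, an IGF binding protein, was higher in null-labelled samples (0.47, adjusted p = 0.0186 in limma) and Stc2, an inhibitor of the binding-protein protease PAPPA, lower (-0.56, adjusted p = 0.0259), with 8.29% of all genes called. The median of the list was -0.06 against 0.01 for all genes. Igf1, the ligand used mainly after birth, was at 19.4 ± 3.45 (SD, n = 4) and 19.9 ± 2.68 FPKM (SD, n = 5), far under Igf2 on the same scale. At E14.5, 3 of 16 were lower, Stc2 (-0.81, adjusted p = 0.0108), Igfbp7 (-0.68, adjusted p = 0.0125) and Igfbp6 (-0.79, adjusted p = 0.0210 in limma), with a median of -0.05 against 0.04 and 4.84% of all genes lower. In wild type from E12.5 to E14.5, 5 of 18 rose and 3 fell, neither above the share of all genes (31% rose and 27.9% fell). Stc2 (1.67, adjusted p = 3.6e-10), Igfbp6 (1.81, adjusted p = 5.89e-09), the Grb10 relative Grb7 (1.22) and Igfbp7 (3.06) rose, and the receptor genes Igf1r (-0.41) and Insr (-0.26) and the binding protein Igfbp5 (-0.41) fell.

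Other imprinted genes were counted by the parental copy that is known to be expressed in at least some tissues. At E10.5, none of 18 other paternally expressed genes passed in limma (5 had an unadjusted p under 0.05), and of 17 maternally expressed ones Zim1, Asb4 (-1.11, adjusted p = 0.0175), Ube3a (-0.59, adjusted p = 0.0344) and Ppp1r9a (-0.37, adjusted p = 0.0459 in limma) were lower and Osbpl5 (0.42, adjusted p = 0.0271) higher. The list medians were 0.01 and 0.05, and 8.29% of all genes passed. At E14.5, Airn (0.55, adjusted p = 0.0133), Zdbf2 (0.42, adjusted p = 0.0211) and Inpp5f (0.34, adjusted p = 0.0220) of 19 paternally expressed genes were higher in null-labelled samples. Airn is the noncoding RNA that overlaps Igf2r, and reads of the 2 may not be separated where they overlap. Its means were 17.0 ± 3.35 and 25.0 ± 1.91 FPKM (SD, n = 6 each), while Igf2r, at 54.1 ± 16.1 and 49.99 ± 5.06 FPKM, did not pass. Of 19 maternally expressed genes Ppp1r9a was higher (0.54, adjusted p = 0.0154) and Kcnq1 lower (-0.60, adjusted p = 0.0395 in limma). With 15.7% of all genes called at this stage, 3 of 19 and 2 of 19 are near or below the background share.

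In wild-type gut from E12.5 to E14.5 the paternally expressed list moved 1 way among its calls. Of 19 genes 10 fell and none rose, led by Nnat, Peg10 (-1.45, adjusted p = 2.29e-07), Zdbf2 (-1.08) and Peg12 (-0.55). Of 20 maternally expressed genes 9 rose and 3 fell, with Slc22a18 (0.98, adjusted p = 6.37e-08), Kcnq1 (1.17) and Dcn (2.24), which encodes the matrix proteoglycan decorin, among those that rose. The medians were -0.16 and 0.17 against 0.02 for all genes, of which 31% rose and 27.9% fell. In null-labelled samples 7 of 19 fell and none rose in the first list, with 6 up and 2 down of 20 in the second. Of all genes 23.2% rose and 11.8% fell there, so the counts of the second list are near the background shares. The medians were -0.0216 and -0.00148 against 0.04.

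Of 10 tested genes listed for imprint maintenance or DNA methylation, 8 fell and none rose in wild type from E12.5 to E14.5 (27.9% of all genes fell). Among them were Zfp57 (-0.46, adjusted p = 1.52e-06 in limma) and the DNA methyltransferase gene Dnmt3a (-0.52, adjusted p = 2.08e-06). The insulator factor gene Ctcf (-0.39) and the histone methyltransferase gene Setdb1 (-0.28) fell as well, and the list median was -0.34. Uhrf1 and Dppa3 did not pass. In null-labelled samples 4 of 10 fell (median -0.10, with 11.8% of all genes falling). At E14.5, 5 of 9 were higher in null-labelled than in wild-type samples (10.9% of all genes were), Dnmt3a (0.38, adjusted p = 0.0175), Setdb1 (0.25), Ctcf (0.27), Zfp445 (0.38) and Trim28 (0.21), with a median of 0.21 against 0.04. These comparisons share the wild-type samples of E14.5. Of the G1 cyclins, their kinases and the CIP/KIP inhibitors other than Cdkn1c, 1 of 10 passed at E10.5, the cyclin gene Ccnd3. Its difference was 0.22 (adjusted p = 0.0330 in limma). At this stage 8.29% of all genes passed, so 1 of 10 is near the background share. At E14.5 Cdk2 was higher (0.19) and the inhibitor gene Cdkn1a lower (-0.54, adjusted p = 0.0264 in limma), with 15.7% of all genes called. In wild type Cdkn1a rose by 1.46 from E12.5 to E14.5 (adjusted p = 3.02e-07), whereas Cdkn1c, its imprinted relative, went from 288 ± 22.9 (SD, n = 5) to 258 ± 37.0 FPKM (SD, n = 6) and did not pass.

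The genes most like each member in level over the 32 samples were listed among 9349 genes with a mean of at least 5 FPKM, by Pearson r on the log2 scale, as a description. Peg3 was closest to Ptpn13 (0.94), to its overlapping antisense entry Peg3as (0.94) and to Zfp568 (0.91). Grb10 was closest to Zfp146, Zfp664 and Ipo9 (0.94, 0.94 and 0.93), H19 to Calm3, Abhd16a and Dvl1 (0.92, 0.92 and 0.91) and Meg3 to Prrt2, Ssc5d and Lamb2 (0.92, 0.91 and 0.83). Mest was closest to F2r (0.86), Plagl1 to Pgm5 (0.85), Igf2r to 9430020K01Rik (0.79) with the endothelial genes Tek and Cd93 next, Cdkn1c to Serinc2 (0.77), Igf2 to Igfbp4 (0.75) and Dlk1 to Rnmtl1 (0.59). The samples span 3 stages and share libraries' depth and composition, so these values carry no test. They also include E14.5 wild-type male 1, with Meg3 at 1022 FPKM, and male 2, with Igf2r at 85.7 FPKM. These r values were not computed without those libraries.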

How the data were processed

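Poly(A)-selected RNA of embryonic gut was sequenced in 36 libraries. The authors deposited FPKM per gene and library, with confidence bounds, made with Picard, TopHat2, Cufflinks and Cuffdiff on mm10, per the submitters' processing notes; versions and strand use were not given in the sources used here. FPKM values depend on transcript length and on the total of each library, and hold no counts. Starts in the files count from 0 and were converted to count from 1.

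Values were analysed as log2(FPKM + 1) with limma 3.58.1 in R 4.3.3 (lmFit, and eBayes with a mean-variance trend). Genes with at least 1 FPKM in at least 3 samples and a valid estimate in every library were tested, two-sided, with Benjamini-Hochberg adjustment over all genes tested, called at an adjusted p under 0.05. Genotype was tested within each stage over 4 group means (labelled genotype by labelled sex), and stage and interaction in 1 fit of 12 group means; the fitted differences weigh the labelled sexes equally. Summaries and figures used Python 3.11.15.

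Pairs of libraries whose values differed by more than 3 SD of sampling noise in at most 1% of genes were averaged, which gave 32 samples. The 10 genes, the gene lists and the averaging were chosen with earlier results of these data known. All 10 genes were tested in every comparison, and those not named in a comparison did not pass in it. Ret is given as the check of the labels. Of each list mostly up to 4 called genes per direction are named, by smallest p. Scaling, pseudocount, filter, library choice, replicate block, trend and omission of each sample were varied. Replicate numbers were not treated as pairs in the main fits. Within a stage, deviations of same-numbered libraries of different groups had correlations of -0.36 to 0.37 (median 0.04). Those of different-numbered libraries had -0.40 to 0.48 (median -0.0074), and the difference was not tested. The limma step was tested on simulated data.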

Additional observations from a re-analysis of the deposited data

Results flagged for a closer look

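In 60 groups of 4 to 6 samples (10 genes, 3 stages, 2 labelled genotypes), the gap between the most extreme sample and its nearest neighbour was compared with the range of the group. Chance marks about 1 in 20 such groups, and 3 values stood apart, which is no more than chance would mark. The Dlk1 value of E14.5 wild-type male 1 was not marked by this rule. In E14.5 wild-type gut, male 1 had Meg3 at 1022 FPKM, with the other 5 at 300.1 to 406 FPKM. In E12.5 wild-type gut, male 2 had Mest at 290.4 FPKM, with the others at 376 to 399 FPKM. In E14.5 wild-type gut, male 2 had Igf2r at 85.7 FPKM, with the other 5 at 40.0 to 53.9 FPKM.

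In 2 cases the change between stages differed between the labelled genotypes by the interaction test of limma. Peg3 had an interaction of 1.30 for E12.5 against E10.5, and Grb10 one of 0.47 for E14.5 against E12.5.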

How the results depend on the processing

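Of 327 values recomputed under other settings, 281 kept their direction and side of the threshold, 36 no longer passed, 9 newly passed and 1 reversed. Leaving out 1 sample at a time, 759 of 860 were kept, 74 no longer passed, 24 newly passed and 3 reversed, and no called gene reversed in either set. The reversal under other settings was Meg3 at E10.5, -0.13 without the null-labelled libraries that hold Ret RNA. At E10.5 that setting compares the labelled genotypes in libraries labelled male only, so the wild-type libraries labelled female, with lower Meg3, are not in it. Among the 10 genes, the number called between genotypes at E10.5 (5) was 1 without the filter on low values, 0 without the null-labelled libraries with Ret RNA, 1 without the libraries against their labelled sex, 3 without the mean-variance trend and 3 in 1 fit of all stages. With the replicate number as a block and every library counted it was 3, and the interaction count for E12.5 against E10.5 was 2. The interaction count (1) for that step was 0 without the filter, with upper-quartile scaling, without the mean-variance trend, without the libraries with Ret RNA and without those against their labelled sex, and 3 with every library counted. For wild type E12.5 against E10.5 (2) it was 1 without the filter and 0 without the libraries against their labelled sex. Without the libraries with Ret RNA, 1 passed in null-labelled E14.5 against E12.5 and 2 in the later interaction; 2 passed between genotypes at E14.5 in 1 fit of all stages. With 1 sample left out, the counts ranged over 1 to 4 (genotype E10.5), 1 to 2 (genotype E14.5), 0 to 3 (wild type E12.5 against E10.5), 0 to 2 (interaction E12.5) and 1 to 2 (interaction E14.5). Dlk1 ranged from -0.14 to 0.68 in wild type E14.5 against E12.5 and from -0.070 to 0.75 between genotypes at E14.5, and Meg3 from -0.32 to 0.12 there. The r of Igf2 and H19 ranged over 0.29 to 0.82 (E10.5) and 0.42 to 0.76 (E12.5), that of Dlk1 and Meg3 over 0.52 to 0.91 (E12.5) and -0.96 to 0.60 (E14.5). At E12.5, r of Dlk1 and Meg3 was 0.74 with median-ratio scaling and 0.76 without the libraries with Ret RNA; with every library counted, r at E10.5 was 0.66 for Igf2 and H19 and 0.68 for Dlk1 and Meg3. Over all genes, genotype calls at E10.5 went from 1091 to 68 without the libraries with Ret RNA and to 179 without wild-type male 5. Unless a setting leaves fewer samples or genes, the cause was not tested.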
